A study of Homo sapiens with 12 samples.

Results

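The group described here consists of 9 genes: the colony-stimulating factors CSF1, CSF2 and CSF3, the interleukins IL1A, IL1B, IL6, IL11 and IL24, and LIF. They were chosen by gene name, and all 9 were found among the 58735 genes of the tables. The cells were MDA-MB-231, an established line from a human triple-negative breast cancer, with a guide RNA against UFL1 (sgUFL1), one against UFM1 (sgUFM1) or a control guide (sgCtrl). UFM1 is a small modifier related to ubiquitin, and its ligase UFL1 couples it to target proteins. The labels give 4 groups of 3 libraries, with separate controls for each guide, and speak both of knockout and of knockdown. They do not say how many guides or clones stand behind a group, or whether the 3 libraries came from separate cultures, so p-values cover only the spread among the libraries at hand, part of which can be technical.

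Group names differ between the tables of counts and of FPKM. Each count column matched exactly 1 FPKM column once gene length was taken into account, and 6 of the 12 columns had the same name in both tables. For the other 6 the names were exchanged. The libraries called "set 1" below are sgUFL1 in the count table and controls for sgUFM1 in the FPKM table, and those called "set 2" are controls for sgUFM1 in the count table and sgUFL1 in the FPKM table. Libraries of sgUFM1 and of the controls for sgUFL1 are named alike in both. No name was preferred, so the effect of sgUFL1 is given as set 1 and as set 2 against the controls for sgUFL1, and that of sgUFM1 is given against set 2 and against set 1.

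The colony-stimulating factors are secreted proteins that drive the growth and survival of myeloid cells. CSF1 acts on macrophages through CSF1R, CSF2 on granulocytes and macrophages, and CSF3 on neutrophils. IL1A and IL1B are the agonists of the interleukin-1 receptor, and IL1B is made as a precursor that caspase-1 cuts. IL6, IL11 and LIF signal through receptors that share the IL6ST chain (gp130) and pass the signal on to JAK kinases and STAT3. IL24 belongs to the interleukin-10 family. Many of these genes are driven by NF-kB, AP-1 and C/EBP factors, and basal-like breast cancer lines are known to secrete several of the proteins.

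In GRCh38 the colony-stimulating factor genes lie apart: CSF1 (ENSG00000184371) at chr1:109910242-109930992, CSF2 (ENSG00000164400) at chr5:132073790-132076170 and CSF3 (ENSG00000108342) at chr17:40015361-40017813, all on the + strand. IL1A (ENSG00000115008, chr2:112773915-112784590) and IL1B (ENSG00000125538, chr2:112829751-112836903) lie 45.2 kb from each other on the - strand. IL6 (ENSG00000136244) is at chr7:22725884-22732002 on the + strand, IL11 (ENSG00000095752) at chr19:55364389-55370463 on the - strand, LIF (ENSG00000128342) at chr22:30240447-30246851 on the - strand and IL24 (ENSG00000162892) at chr1:206897443-206904139 on the + strand. The neighbours of the same families were near 0: IL3, 10.6 kb from CSF2, reached 0.0646 CPM (a count scaled to library size), OSM, 16.0 kb from LIF, reached 0.176 CPM, and IL20, 28.2 kb from IL24, reached 0.38 CPM. Genes on the opposite strand overlap IL6 (STEAP1B and AC073072.1, at most 0.378 and 0.441 CPM) and LIF (LIF-AS1 and AC004264.1, at most 0.623 and 2.02 CPM). The counting is not stated to use strand, so reads of such a pair cannot be told apart.

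RefSeq promoter windows (GRCh38.p14, 250 bases before to 50 after the start, 300 bases in all) were found for 6 of the 9 members: CSF2, IL1A, IL1B, IL6, IL11 and IL24. Both strands were searched for AP-1 (TGANTCA), C/EBP (TTGCNNAA) and the NF-kB motif kB. These 4 windows are shown because IL6 and IL1B had like patterns over the libraries, IL11 followed the colony-stimulating factors and IL24 ran opposite to CSF3. Capitals mark the matches.
IL6 promoter, chr7:22726950-22727249, strand +: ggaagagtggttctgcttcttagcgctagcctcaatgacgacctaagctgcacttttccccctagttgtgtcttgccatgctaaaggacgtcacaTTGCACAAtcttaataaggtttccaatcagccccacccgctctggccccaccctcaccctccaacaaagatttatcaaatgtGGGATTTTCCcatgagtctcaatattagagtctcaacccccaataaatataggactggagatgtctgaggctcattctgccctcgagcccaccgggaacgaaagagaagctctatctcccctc
IL1B promoter, chr2:112836730-112837029, strand -: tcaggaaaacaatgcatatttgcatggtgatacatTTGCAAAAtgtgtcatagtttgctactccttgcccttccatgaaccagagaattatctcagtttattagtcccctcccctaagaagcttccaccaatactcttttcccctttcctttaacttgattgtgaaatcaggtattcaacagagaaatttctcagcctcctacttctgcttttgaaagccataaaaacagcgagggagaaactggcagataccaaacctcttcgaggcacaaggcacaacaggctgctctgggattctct
IL11 promoter, chr19:55370414-55370713, strand -: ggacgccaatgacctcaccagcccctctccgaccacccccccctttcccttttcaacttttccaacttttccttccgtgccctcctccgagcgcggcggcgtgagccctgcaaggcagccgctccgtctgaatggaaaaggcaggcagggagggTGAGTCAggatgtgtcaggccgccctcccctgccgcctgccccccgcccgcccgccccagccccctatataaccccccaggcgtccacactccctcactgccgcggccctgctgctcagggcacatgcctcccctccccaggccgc
IL24 promoter, chr1:206897193-206897492, strand +: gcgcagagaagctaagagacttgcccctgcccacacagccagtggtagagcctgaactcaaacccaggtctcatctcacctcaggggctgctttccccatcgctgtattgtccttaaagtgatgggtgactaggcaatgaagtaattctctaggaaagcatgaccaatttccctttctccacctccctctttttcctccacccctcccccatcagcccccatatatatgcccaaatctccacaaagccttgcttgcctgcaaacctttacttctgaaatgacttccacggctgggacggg

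The IL6 window held a C/EBP match at positions -155 to -148 from the start and a kB match at -73 to -64. The IL1B window held a C/EBP match at -215 to -208, and the IL11 window held an AP-1 match at -96 to -90. IL1A has AP-1 matches in both of its windows, while none of the 3 motifs was found in those of CSF2 and IL24. Over all 35116 promoter windows, 11.3% held the kB motif, 7.71% AP-1 and 10.5% C/EBP. These matches describe the letters only.

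Totals ran from 15342793 to 18033331 counts per library. UFL1, the target of sgUFL1, was at 19.8, 24.5 and 30.3 CPM in the controls for sgUFL1, 16.8, 19.3 and 18.1 CPM in set 1, 12.8, 11.5 and 13.2 CPM in set 2 and 20.5, 25.1 and 23.7 CPM with sgUFM1. It was thus lowest in set 2, and set 1 was also below the controls for sgUFL1. UFM1, the target of sgUFM1, was at 37.2, 39.7 and 39.4 CPM in the sgUFM1 libraries, below all others (49.5 to 71.3 CPM). The mesenchymal-like markers VIM (755 to 1069 CPM), AXL (669 to 1023 CPM) and CD44 (413 to 784 CPM) were high in every library, and ESR1 stayed at or below 0.745 CPM. Of the other markers taken beforehand as low in the line, PGR reached at most 1.16 CPM and CDH1 0.34 CPM. ERBB2 (40.6 to 71.9 CPM) and EPCAM (5.9 to 9.7 CPM) were present in every library. The 12 leukocyte markers summed to between 2.44 and 3.35 CPM in the controls for sgUFL1, and to 2.81-3.89 CPM for set 1, 3.04-4.65 CPM for set 2 and 3.05-3.67 CPM for sgUFM1, nearly all of it CD14, and CD3E, MS4A1 and TYROBP were at 0 in all 12. Weighted by counts, transcripts had a mean GC content of 47.59% to 48.66% in the controls for sgUFL1 and 49.09% to 50.26% elsewhere. Mitochondrial transcripts took 4.51% to 4.76% of counts in the controls for sgUFL1 and 3.12% to 4.003% elsewhere. The 10 fibroblast and endothelial markers had summed levels of 17.6-26.6 CPM (controls for sgUFL1), 19.1-32.1 CPM (set 1), 26.7-30.6 CPM (set 2) and 24.7-26.7 CPM (sgUFM1). COL1A1 (5.5 to 16.1 CPM), PDGFRB (3.8 to 8.9 CPM) and KDR (2.5 to 8.9 CPM) were found in every library, as were ACTA2, COL3A1 and VWF at lower levels. LUM was at 0 in 11 and COL1A2 in 10 of the 12 libraries. Of these markers, PDGFRB was higher (0.93 on the log2 scale, adjusted p = 0.0139) and KDR lower (-1.27, adjusted p = 0.0185) with sgUFM1 against the controls for sgUFL1. The part of GC content, mitochondrial share and these markers in the members' changes was not tested, apart from offsets for GC content and length given below.

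A pair of libraries stood apart from their sets, replicate 2 of the controls for sgUFL1 and replicate 1 of set 1. Of 10541 protein-coding genes with at least 5 mean CPM, 121 were at least 2-fold away from the rest of the set in the first of them and 114 in the second, against 2 to 51 in each other library. In 120 of the 121, replicate 1 of set 1 deviated in the opposite direction. CSF3 was among the members that showed it most, with a log2 difference from the mean of the other 2 of 2.24 in the control library and of -2.17 in the set 1 library. IL24 ran the other way, with -1.22 in the control library and 1.18 in the set 1 library. For 8 of the 9 members the 2 deviations had opposite signs, and IL1A was the exception (-0.18 and -0.20). CSF3 and IL24 in replicate 2 of the controls (467 and 72.8 CPM) lay near replicates 2 and 3 of set 1 (520 and 524, 65.7 and 71.1 CPM), and in replicate 1 of set 1 (115 and 156 CPM) near control replicates 1 and 3 (97.9 and 99.2, 177 and 164 CPM). LIF and CSF1 in replicate 2 of the controls (142 and 117 CPM) lay between the other controls and replicates 2 and 3 of set 1. The other controls were at 106 and 69.1 CPM for LIF and 98.9 and 85.5 CPM for CSF1. Those set 1 libraries were at 178.5 and 179.9 CPM for LIF and 135 and 131 CPM for CSF1. UFL1 in replicate 2 of the controls was at 24.5 CPM, between its fellow controls. Against the controls for sgUFL1, UFL1 was not called in set 1 (-0.45 on the log2 scale, edgeR adjusted p = 0.13). It was called lower in set 2 against them (-1.02, edgeR adjusted p = 0.0017). With sgUFM1, UFL1 was called higher against set 2 (0.90, edgeR adjusted p = 5.6e-06) and not called against set 1 (0.36, edgeR adjusted p = 0.0776). Why the 2 libraries stood apart was not tested. The exchange of whole set names does not alter these values, and no library was moved. The members' tests below are given with and without these 2 libraries.

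**Figure D1:**
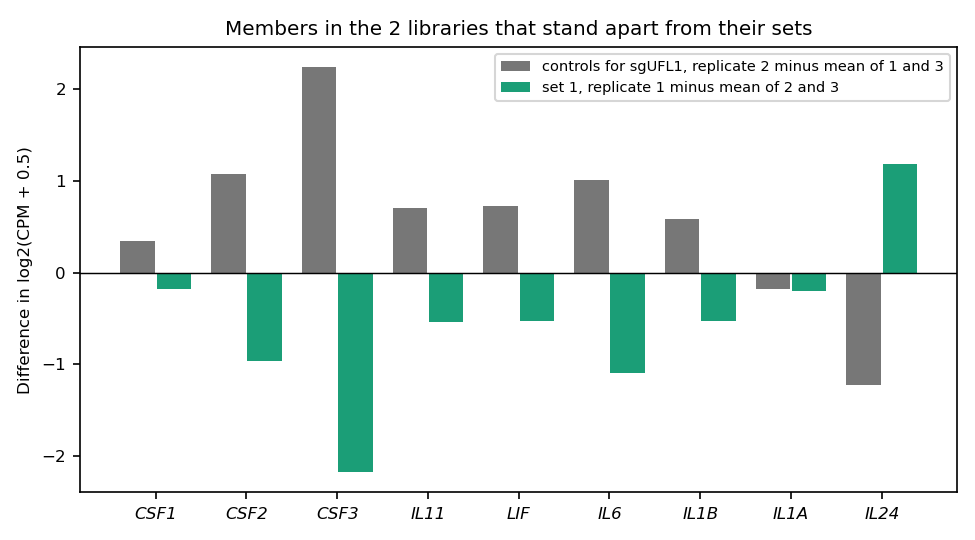
Difference in log2(CPM + 0.5) between replicate 2 of the controls for sgUFL1 (grey) or replicate 1 of set 1 (green) and the mean of the other 2 libraries of its set, for each member. The bars point in opposite directions for 8 members, with CSF3 at 2.24 and -2.17, and both lie near 0 for IL1A.

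Per transcript length the members spanned a wide range. IL11 was the highest with a mean of 277.5 FPKM (fragments per kilobase of transcript, scaled to library size) over the 12 libraries, followed by CSF3 (195), IL1B (165.7), IL24 (53.67), CSF2 (52.16), LIF (36.26), CSF1 (23.35), IL6 (11.14) and IL1A (0.6387). The order at the top differed between sets: with sgUFM1, CSF3 (406.9) was above IL11 (354.8), and IL1B was above CSF3 in the controls for sgUFL1 (161.7 and 98.9) and in set 2 (107.6 and 102). IL11, CSF3 and IL1B stood at the 99.6, 99.36 and 99.17 percentiles of protein-coding genes, and IL1A at 44.26. IL24 and CSF2 were next to each other in this order and their ranges overlapped (32.86 to 88.02 and 21.88 to 77.45 FPKM), as did those of LIF and CSF1 (17.23 to 47.52 and 15.62 to 27.01 FPKM). CSF3 varied the most of the well-counted members, 9.52-fold in CPM between the lowest and the highest library, and CSF1 the least, 1.73-fold.

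**Figure D2:**
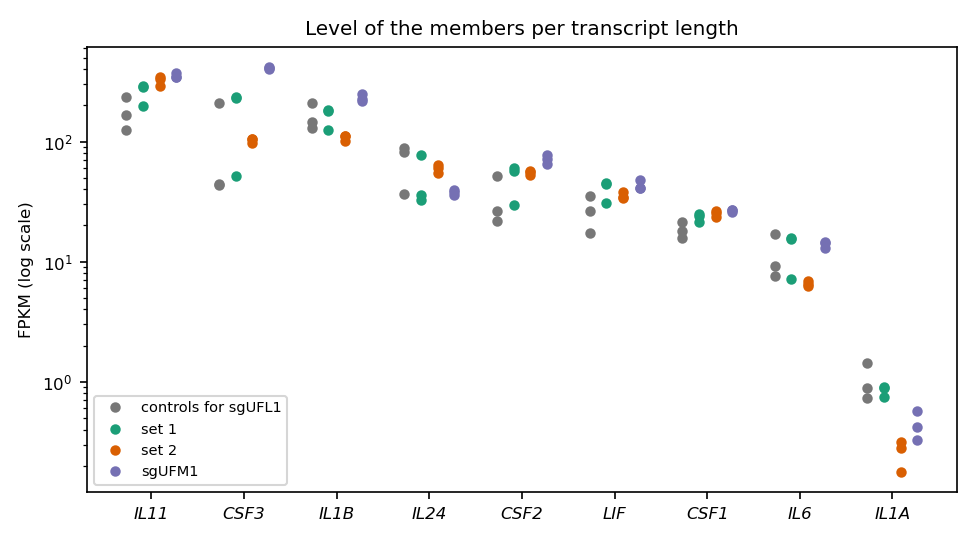
FPKM of each member in each of the 12 libraries on a log scale, ordered by mean, with the sets in colour. IL11, CSF3 and IL1B lie highest and IL1A lowest, and CSF3 spreads from 43.4 to 415.2 FPKM.

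Levels below are CPM after TMM scaling, with replicates 1, 2 and 3 in order. CSF3, the granulocyte factor, was at 97.9, 467 and 99.2 in the controls for sgUFL1, 115, 520 and 524 in set 1, 218, 235 and 235 in set 2 and 932, 910 and 893 with sgUFM1. The sgUFM1 libraries were above all others and close together, set 2 was tight and intermediate, and the remaining sets each held low and high libraries. CSF2, the granulocyte and macrophage factor, was at 21.0, 40.7 and 17.4 in the controls for sgUFL1, 23.7, 47.5 and 45.4 in set 1, 41.8, 45.1 and 44.7 in set 2 and 61.7, 57.1 and 51.7 with sgUFM1. It was again highest with sgUFM1 in every library, and low only in 2 controls and 1 library of set 1. CSF1, the macrophage factor, was at 98.9, 117 and 85.5, then 118, 135 and 131, then 130, 144 and 140, and 148, 147 and 140 in the same order of sets. Its controls for sgUFL1 lay below every other library, while set 2 and sgUFM1 overlapped.

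IL1B was at 457, 651 and 409 CPM in the controls for sgUFL1, 392, 571 and 562 in set 1, 314, 348 and 350 in set 2 and 678, 706 and 778 with sgUFM1. Set 2 lay below and sgUFM1 above every other library. IL1A was barely detected, with 26, 31 and 49 counts in the controls for sgUFL1, 26, 29 and 30 in set 1, 11, 12 and 6 in set 2 and 20, 14 and 11 with sgUFM1. Counting error alone is large at such counts, and only the separation of set 2 and sgUFM1 from the other sets is visible.

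IL6 was at 15.8, 35.4 and 19.1 CPM in the controls for sgUFL1, 15.0, 33.0 and 32.2 in set 1, 13.1, 14.5 and 13.8 in set 2 and 27.4, 30.6 and 29.5 with sgUFM1. Set 2 was lowest throughout, and the libraries with sgUFM1 lay within the span of the controls for sgUFL1. IL11 was at 450, 635 and 338 CPM in the controls for sgUFL1, 536, 768 and 787 in set 1, 776, 927 and 900 in set 2 and 1013, 928 and 929 with sgUFM1. Its order of sets was that of CSF1, and sgUFM1 exceeded set 2 by a small margin only. LIF was at 106, 142 and 69.1 CPM in the controls for sgUFL1, 124, 179 and 180 in set 1, 139, 152 and 137 in set 2 and 191, 163 and 165 with sgUFM1. The sgUFM1 libraries and replicates 2 and 3 of set 1 were the highest, and control replicates 3 and 1 the lowest.

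IL24 ran opposite to CSF3, with 177, 72.8 and 164 CPM in the controls for sgUFL1, 156, 65.7 and 71.1 in set 1, 109, 120 and 128 in set 2 and 71.2, 75.7 and 78.0 with sgUFM1. The sgUFM1 libraries were low and close together, and the single low control was replicate 2. In RNA from bulk cells, fewer cells that express a gene and less RNA per cell cannot be told apart.

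**Figure D3:**
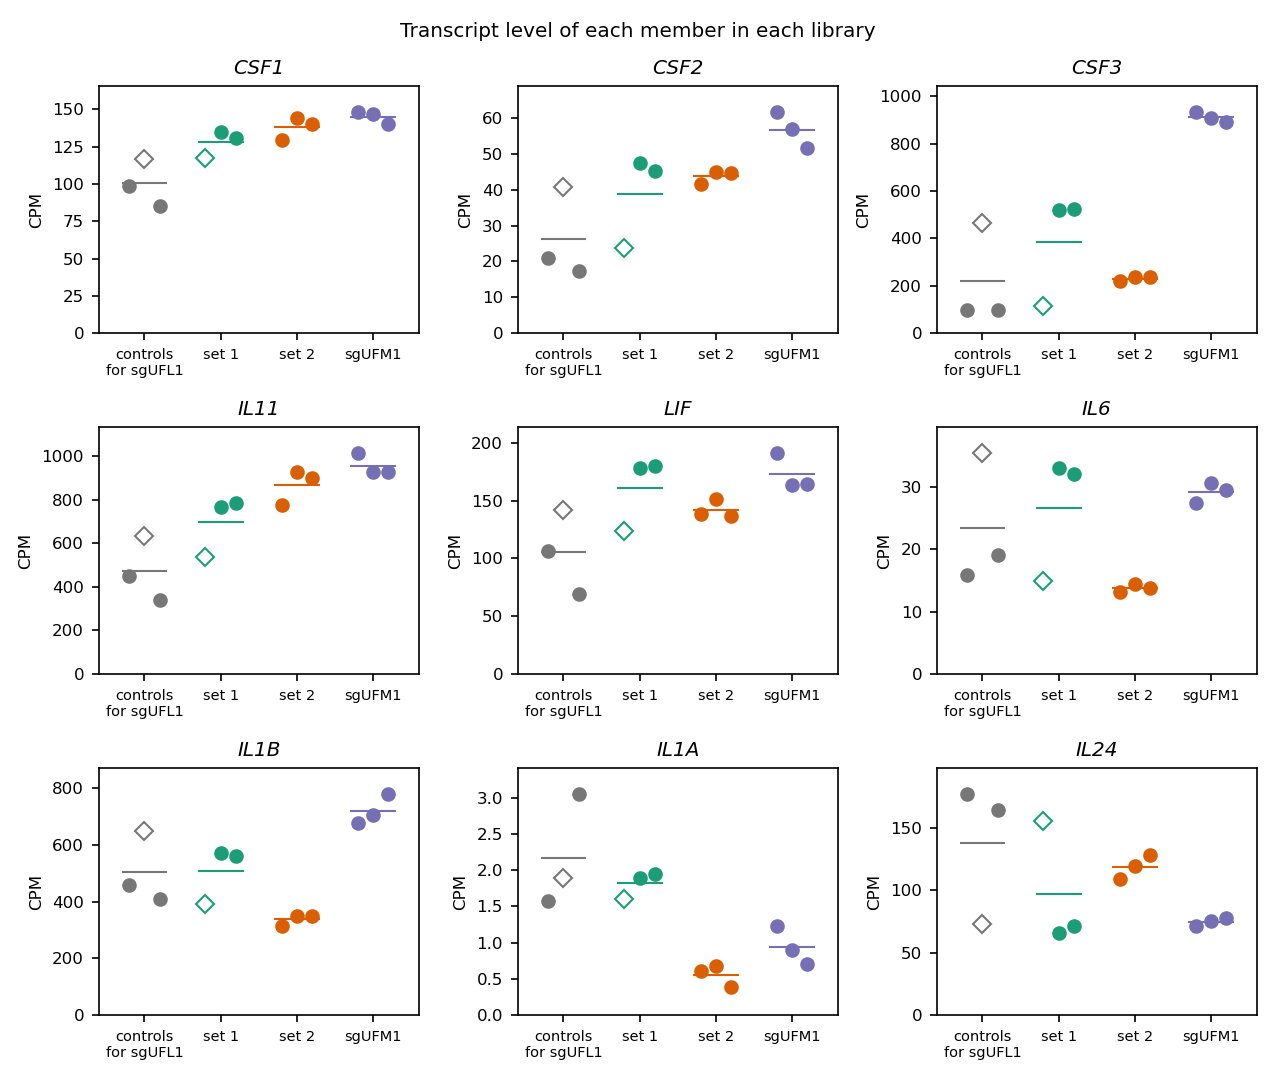
CPM of each member in each library (points) and the mean of each set (lines), from 0. Open diamonds are the 2 libraries that stand apart; sgUFM1 is above all other libraries for CSF3, CSF2 and IL1B, and set 2 is below all others for IL1B and IL6.

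Against set 2, which the count table names as its controls, CSF3 rose the most in the sgUFM1 libraries. Mean CPM was 911.7 against 229.2, a log2 fold change of 2.00 (SE 0.06, adjusted p = 3.3e-15 in the quasi-likelihood test of edgeR with Benjamini-Hochberg adjustment). IL1B rose by 1.11 (SE 0.07, adjusted p = 1.5e-10), IL6 by 1.09 (SE 0.10, adjusted p = 9e-08), CSF2 by 0.38 (SE 0.08, adjusted p = 0.0012) and LIF by 0.29 (SE 0.07, adjusted p = 0.0035). IL24 fell, with -0.66 (SE 0.08, adjusted p = 1.5e-06). CSF1 (0.08, adjusted p = 0.371), IL11 (0.15, adjusted p = 0.0772) and IL1A (0.76, adjusted p = 0.191) did not pass. Of the 9 members 6 passed, where the background, the share of all 15083 genes tested that passed, was 37.8%, 19.3% higher and 18.5% lower. The libraries of the 2 sets did not overlap for 8 members, all but CSF1, as for 46.7% of genes. Values for CSF3, IL1B and IL6 passed under every alternative, but a model over all 12 libraries left 3 members (3023 of 15821 genes). With offsets for GC content and length CSF1 (0.28) and IL11 (0.32) passed too (5020 of 15078 genes).

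Against set 1, which the FPKM table names as its controls, only IL1B (0.50, SE 0.13, adjusted p = 0.0351) and IL11 (0.46, SE 0.13, adjusted p = 0.0485) rose. That is 2 of 9 members at a background of 9.72% of 14977 genes, 4.57% higher and 5.15% lower. There was no overlap for 6 members, as for 31.0% of genes. CSF3 was at 911.7 against 386.2 CPM, a log2 fold change of 1.24 with an SE of 0.40 (adjusted p = 0.0716). Without replicate 1 of set 1, 4 members were called, all higher, at a background of 26.7% (12% higher and 14.6% lower): CSF3 at 0.81 (SE 0.05, adjusted p = 6.9e-11), IL1B at 0.35, IL11 at 0.30 and CSF2 at 0.29. IL6 (-0.16), LIF (-0.05) and IL24 (0.13) then had the opposite sign and did not pass. Without replicate 2 or 3 of set 1 the count was 1 (814 of 15432 and 625 of 15426 genes). Without any 1 of the sgUFM1 libraries it was 0 (780 of 15346, 118 of 15368 and 204 of 15412 genes), and without the filter on low counts it was 5 (2082 of 29663 genes).

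The controls for sgUFL1 are named alike in both tables, but belong to the other guide. Against them CSF3 rose by 2.04 (SE 0.46, adjusted p = 0.018), CSF2 by 1.10 (SE 0.24, adjusted p = 0.0157), IL11 by 1.01 (SE 0.18, adjusted p = 0.0065), LIF by 0.71 (SE 0.19, adjusted p = 0.0388) and CSF1 by 0.53 (SE 0.12, adjusted p = 0.0188) in the sgUFM1 libraries. IL24 fell, with -0.88 (SE 0.24, adjusted p = 0.0361), though its range overlapped the controls through replicate 2. IL1B (0.51, adjusted p = 0.0541), IL1A (-1.20, adjusted p = 0.0675) and IL6 (0.31, adjusted p = 0.403) did not pass. The 6 calls among 9 members stand beside a background of 10.0% of 15035 genes, 5.57% higher and 4.43% lower. There was no overlap for 7 members, all but IL6 and IL24, as for 33.5% of genes. Without replicate 2 of the controls all 9 were called, 7 higher and 2 lower, at a background of 27.1% (14.2% higher and 12.9% lower), and the log2 fold change of CSF3 became 3.21 (SE 0.09), that of IL6 0.74 and that of IL24 -1.19. Leaving out control replicate 1 left 1 call (650 of 15391 genes), sgUFM1 replicate 1 also 1 (275 of 15423), and sgUFM1 replicate 2 or 3 left 2 (375 of 15406 and 463 of 15440). IL11 was called in every case. IL24 lost its call under 10 of 16 alternatives, CSF3, CSF1 and LIF under 6 each and CSF2 under 5. With DESeq2, CSF3 was at 2.03 (adjusted p = 0.0691).

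**Figure D4:**
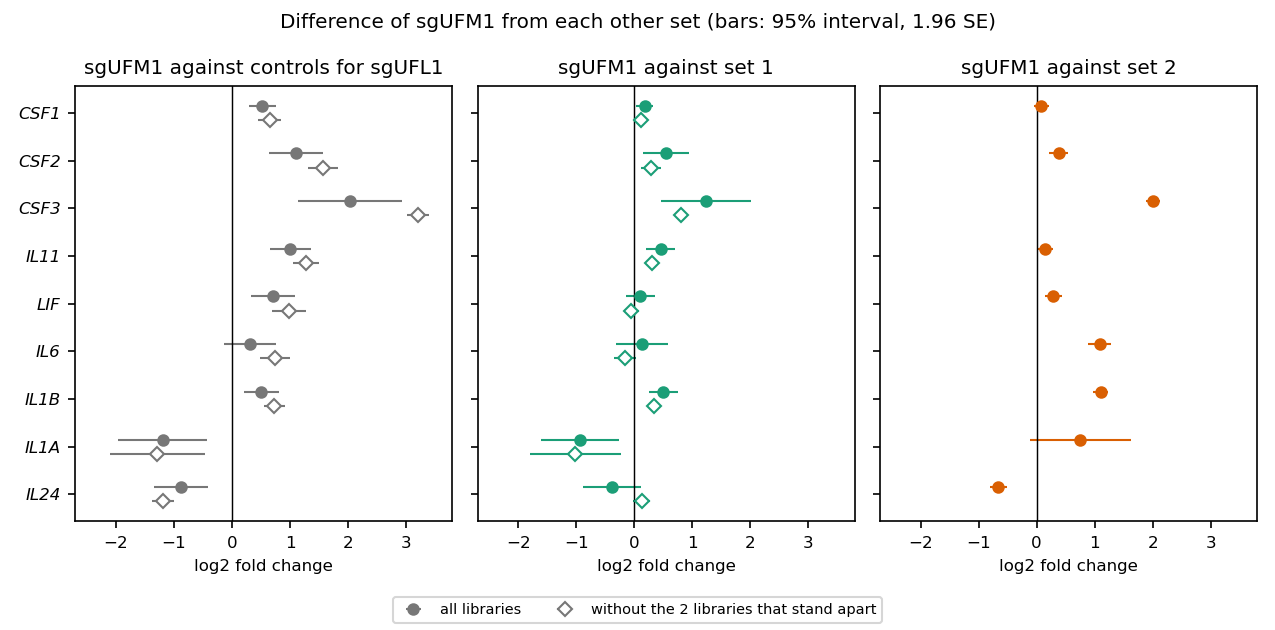
Log2 fold change of sgUFM1 against each other set, with bars for the 95% interval, for all libraries (filled) and without the 2 libraries that stand apart (open). CSF3 lies at 2.04, 1.24 and 2.00 from left to right with all libraries, and its bars shrink without the 2 libraries, which were picked because they deviate.

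The effect of sgUFL1 was first read as set 1 against the controls for sgUFL1, as the count table names them. No member passed, at a background of 1.10% of 14996 genes, 1.08% higher and 0.0200% lower, and the sets did not overlap for CSF1 alone, as for 33.5% of genes. CSF3 was at 386.2 against 221.2 CPM, a log2 fold change of 0.82 with an SE of 0.66 (adjusted p = 0.436), and LIF (0.62), CSF2 (0.57) and IL11 (0.57) were also higher on average. At an unadjusted p under 0.05 there were 3 members, DESeq2 called 2 (1697 of 11253 genes), and a model over all 12 libraries 3 (3463 of 15821 genes). Both doubtful libraries enter here. They were picked from these same counts because they deviate, so leaving them out narrows the spread, and adjusted p-values without them depend on that choice. Without them 8 members were called, at a background of 31.9% (18.6% higher and 13.4% lower): CSF3 at 2.43 (SE 0.10, adjusted p = 4.2e-06), CSF2 at 1.30, LIF at 1.05, IL11 at 1.00, IL6 at 0.92, CSF1 at 0.55 and IL1B at 0.41 higher, and IL24 at -1.30 lower. Without control replicate 2 alone the count was 5, beside 2419 of 15453 genes.

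Read as set 2 against the same controls, as the FPKM table names them, the effect of sgUFL1 was mixed. IL11 rose by 0.85 (SE 0.18, adjusted p = 0.0038), CSF2 by 0.72 (SE 0.23, adjusted p = 0.0305) and CSF1 by 0.44 (SE 0.12, adjusted p = 0.0149). IL1A fell, with a log2 fold change of -1.96 (SE 0.42, adjusted p = 0.0042) on 6 to 49 counts per library, as did IL6 with -0.79 (SE 0.24, adjusted p = 0.0222) and IL1B with -0.60 (SE 0.15, adjusted p = 0.0088). CSF3 was at 229.2 against 221.2 CPM, 0.03 (adjusted p = 0.96), LIF at 0.41 (adjusted p = 0.105) and IL24 at -0.23 (adjusted p = 0.463). These 6 calls stand beside a background of 35.8% of 15175 genes, 17.4% higher and 18.4% lower. The same 6 members did not overlap between the sets, as for 49.8% of genes. Without replicate 2 of the controls 8 were called, at a background of 44.9% (22.1% higher and 22.9% lower), with CSF3 at 1.20 and IL6 no longer past the threshold (-0.36, adjusted p = 0.0605). With offsets for GC content and length only IL1A and IL11 passed (1361 of 15170 genes), and CSF1, whose longest transcript has 59.5% GC, was at 0.006. Leaving out replicate 2 or 3 of set 2 left 3 calls (2486 of 15513 and 2672 of 15646 genes).

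Set 1 and set 2 are a guide and the other guide's controls under either naming. IL1A (1.68, SE 0.36, adjusted p = 0.0417) and IL1B (0.59, SE 0.13, adjusted p = 0.0429) were higher in set 1, 2 of 9 members at a background of 2.20% of 15033 genes, 0.705% higher and 1.49% lower. There was no overlap for IL1A, IL1B and IL6, as for 24.4% of genes. IL6 (0.94, adjusted p = 0.0711) and CSF3 (0.74, adjusted p = 0.337) were not called. Same-numbered libraries of these sets deviated together weakly (r = 0.30, 0.16 and 0.15), but the labels do not state a pairing. With the replicate number as a block IL6 (0.88, adjusted p = 0.0309) and IL11 (-0.34, adjusted p = 0.0297) passed too, 4 in all, beside 832 of 15033 genes. Without replicate 1 of set 1, 6 were called at a background of 16.7% (7.84% higher and 8.87% lower), IL6 at 1.23, CSF3 at 1.17, IL1B at 0.73, LIF at 0.32 and IL1A at 1.75 higher and IL24 at -0.81 lower. Leaving out any other library left 0 calls among the members and 13 to 171 among all genes.

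The difference between the guides, each against its own controls, has the same value under both namings, because exchanging the names only rearranges the sum. IL1B was the member for which it passed, at -1.09 (SE 0.22, adjusted p = 0.0022), the effect of sgUFL1 minus that of sgUFM1. This is 1 of 9 members, at a background of 34.8% of 15821 genes, 17.9% higher and 17.0% lower, so the members' share was below that of all genes. IL6 was at -0.89 (adjusted p = 0.087) and CSF3 at -1.19 (adjusted p = 0.225). Over the 21 alternatives IL1B stayed between -1.25 and -0.74 and was called in each. Without the 2 libraries that stand apart 7 members were called, beside 7347 of 16115 genes, and CSF3 (0.38) and IL24 (-0.68) reversed. Leaving out control replicate 1 gave 2 calls (5587 of 16196 genes) and control replicate 2 gave 4 (6321 of 16211 genes). Comparisons that share a set share its libraries, so they are not independent of each other.

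Receptors for these factors were sparse. CSF3R and CSF2RB were at a median of 0 FPKM, and CSF1R reached at most 0.6316 FPKM. IL6ST, the shared chain of the IL-6 family, was the exception with a median of 26.72 FPKM, while LIFR (2.238), IL6R (1.112) and IL11RA (0.3982) were low. Counts called in this and the following lists stand beside the shares of all genes called in the same fits. With all libraries, the shares for sgUFM1 were 10.0% against the controls for sgUFL1, 37.8% against set 2 and 9.72% against set 1. Against the controls for sgUFL1 they were 1.10% for set 1 and 35.8% for set 2. For set 1 against set 2 the share was 2.20%. Of 14 receptor genes 10 were tested, and none was called for sgUFM1 against the controls for sgUFL1. Against set 2, 4 were higher, among them IL6ST at 0.61 (SE 0.07) and IL1RAP, the co-receptor of interleukin-1, at 0.62 (SE 0.10), and 1, IL6R, was lower at -0.60 (SE 0.16). Against set 1, IL1RAP (0.44) and IL6ST (0.45) were higher. In set 2 against the controls for sgUFL1, CSF2RA (-1.17), IL1RAP (-0.53) and IL6ST (-0.48) were lower, and in set 1 against them none was called. Without the 2 libraries that stand apart, CSF1R was higher (2.22, SE 0.37, adjusted p = 0.0008) and IL6R lower (-1.01, SE 0.18, adjusted p = 0.0011) with sgUFM1 against the controls for sgUFL1, of 11 receptor genes tested. In set 1 against those controls CSF1R (1.57) was then higher and IL1R1 (-0.94), IL6R (-0.82) and LIFR (-0.94) were lower. Over the 12 libraries CSF1R had only 8 to 51 counts, so counting error is large for it. The numbers of receptor genes called were 4 higher and 0 lower for sgUFM1 against set 1, 1 and 6 for set 2 against the controls for sgUFL1, and 1 and 1 for set 1 against set 2. Of all genes, 26.7%, 44.9% and 16.7% were called in these fits. The shares were 27.1% and 31.9% for sgUFM1 and set 1 against the controls for sgUFL1.

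Of 13 JAK-STAT genes, 1 was called for sgUFM1 against the controls for sgUFL1, the feedback inhibitor SOCS2, at -0.71 (SE 0.19, adjusted p = 0.0312). Against set 2 it was at -1.05 (SE 0.14), and there PTPN11 (0.23) was higher and STAT5B (-0.25) lower. SOCS3, the feedback inhibitor of IL-6 family signalling, was called in set 2 against the controls for sgUFL1 (0.58), together with STAT5A (0.37) and TYK2 (0.31), while PTPN11 (-0.46) and JAK1 (-0.46) were lower. None was called for set 1 against those controls. Without the 2 libraries that stand apart, 1 was higher and 4 were lower with sgUFM1 against the controls for sgUFL1, and 1 was higher and 2 were lower in set 1 against them. SOCS3 was the higher one in both, at 0.73 and 0.94. The counts were then 3 and 3 for set 2 against those controls, 1 and 1 for sgUFM1 against set 1, and 0 and 2 for set 1 against set 2. All genes were called at 44.9%, 26.7% and 16.7% in these fits. They were called at 27.1% and 31.9% for sgUFM1 and set 1 against the controls for sgUFL1.

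Of 16 transcription factors at cytokine genes, 5 were higher with sgUFM1 against the controls for sgUFL1, JUNB at 0.77 (SE 0.12), CEBPD at 0.87 (SE 0.17), CEBPB at 0.81 (SE 0.16), FOSL2 and NFKB2, and ETS1 was lower at -0.37. Their median log2 fold change was 0.33, and that of all genes tested was -0.004. Against set 2, 3 were higher and 5 lower, with NFKBIZ at 0.63 (SE 0.08) and JUN at -0.46 (SE 0.07), and against set 1 RELB alone was lower, at -0.40. In set 1 against the controls for sgUFL1 JUNB (0.90) and RELB (0.73) were higher. In set 2 against them 7 were higher, among them CEBPD (1.13), JUN (0.80) and JUNB (0.81), and REL was lower. Without the 2 libraries that stand apart, the counts were 8 higher and 2 lower for sgUFM1 and 10 higher and 1 lower for set 1, each against the controls for sgUFL1, and 7 higher and 1 lower for set 2 against them. The shares of all genes called were 27.1%, 31.9% and 44.9% in these fits. They were 26.7% for sgUFM1 against set 1 and 16.7% for set 1 against set 2. With sgUFM1 against set 1, FOSL2 (0.16) was then higher, and NFKB1, RELA, RELB (-0.41), FOSL1, ETS1 and ETS2 were lower. In set 1 against set 2, NFKB1 (0.27), NFKBIZ (0.50) and CEBPB (0.27) were higher, and JUN (-0.33) and ATF3 (-0.69) lower.

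Regulators of cytokine transcripts and of interleukin-1 processing were called in part. ZC3H12A, a ribonuclease that degrades IL6 transcripts, was higher with sgUFM1, at 1.07 (SE 0.22) against the controls for sgUFL1 and 0.71 (SE 0.09) against set 2, 1 of 9 turnover genes in the first comparison. With sgUFM1 against set 2, RC3H1 and RC3H2 were higher too, and HNRNPD was lower against set 1. In set 2 against the controls for sgUFL1, ZFP36 and KHSRP were higher and RC3H1 and RC3H2 lower. No turnover gene was called in set 1 against them. Of 10 tested interleukin-1 genes, GSDMD, the pore through which IL1B can leave a cell, was higher at 0.43 and CASP4 lower at -0.45 with sgUFM1 against the controls for sgUFL1. GSDMD was also higher in set 1 and in set 2 against those controls. In set 2 against them, NLRP3 and CAPN1 were higher too and CASP1 was lower. With sgUFM1 against set 2, 2 were higher and 3 lower. CASP1, which cuts the IL1B precursor, was higher at 0.94 (SE 0.18) and AIM2, an inflammasome sensor, at 0.83 (SE 0.17), while NLRP3, another sensor, was lower at -0.29 (SE 0.10), CAPN1, a calpain protease subunit, at -0.27 and CASP4 at -0.23. The inflammasome adaptor PYCARD had a median of 0.1428 FPKM, and IL1RN, the receptor antagonist, 0.03822 FPKM. Without the 2 libraries that stand apart, 3 turnover genes were higher and 0 lower with sgUFM1 and 4 higher and 1 lower in set 1, and 3 interleukin-1 genes higher and 1 lower with sgUFM1 and 3 and 0 in set 1, each against the controls for sgUFL1. Of all genes, 27.1% were then called with sgUFM1 and 31.9% in set 1 against those controls.

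Few other interleukins were present: of 45 interleukins and related factors outside the group, 29 had under 5 counts in every library and 13 were tested. IL18 was lower with sgUFM1 against the controls for sgUFL1 at -1.0 (SE 0.19) and against set 2 at -0.90 (SE 0.15), and IL17D (-2.20, SE 0.43) and IL32 (-0.92, SE 0.25) were lower against set 2. Over the 12 libraries IL17D had only 3 to 37 counts and IL32 27 to 81, so counting error is large for them. IL18 is a member of the interleukin-1 family. In set 2 against the controls for sgUFL1, IL32 and CTF1 were higher. Without the 2 libraries that stand apart, 2 were higher (CLCF1 and CTF1) and 2 lower (IL18 and KITLG) with sgUFM1 against the controls for sgUFL1, and 1 was higher and 2 were lower in set 1 against them. The shares of all genes called in these fits were 27.1% and 31.9%. These lists and their genes were chosen with earlier results of these data known.

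Over the 12 libraries the members fell into patterns, described here by Pearson's r of log2 CPM with no test, since sets, depth and the libraries that stand apart are shared. CSF1 and IL11 ran together (r = 0.986, n = 12), as did CSF2 and IL11 (0.962) and IL1B and IL6 (0.909), while CSF1 and IL6 did not (0.222). CSF3 and IL24 were opposite (-0.937). Among 10540 protein-coding genes the closest to CSF3 were C3 (0.993), VEGFA (0.99) and PDIA4 (0.989). Those closest to IL6 were CXCL11 (0.982), ZC3HAV1 (0.976) and SUN1 (0.97), while IFIT1 (0.966) and HMGB3 (0.964) were among the closest to IL1B, and the closest to IL24 were PGM5 (0.981), STOM (0.977) and ANKRD27 (0.969). CD276 (0.991), LGALS3BP (0.989) and GNA15 (0.988) were closest to CSF1, GNAI2 (0.992) to IL11, RTL6 (0.99) to CSF2 and COL6A1 (0.977) to LIF.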

How the data were processed

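Total RNA was profiled in 12 libraries of MDA-MB-231 cells. The submitters' processing notes name STAR 2.7.7a, fastp 0.20.1, featureCounts 2.0.0 and the build GRCh38. What each did, and with which settings, is not given in the sources used here. The authors deposited raw whole-number read counts per gene and, in another table, FPKM values, with gene length among the other deposited columns. Columns of both tables were matched over 12320 genes with at least 20 counts. Counts were tested with edgeR 4.0.16 in R 4.3.3 by the quasi-likelihood test (filterByExpr, TMM, Benjamini-Hochberg adjustment over all genes tested, threshold 0.05), fitting the 6 libraries of each comparison, and all 12 for the test of the difference between guides. Each adjusted p in the text comes from it unless another tool is named. Each SE is the absolute log2 fold change divided by the square root of the F statistic of that test.

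Named genes are all 9 members, UFL1 and UFM1, up to 4 genes per list with the smallest p among those past the threshold, and the 3 genes most like each member by Pearson's r. Receptors and other list genes named by level, and list genes beyond these, were chosen after their values were seen. The members and lists were chosen with earlier results of these data known. The labels do not state whether replicate numbers pair libraries of different sets. Same-numbered libraries deviated together weakly in set 1 and set 2 (r = 0.30, 0.16 and 0.15), and not in every pair elsewhere. Set 1 and the controls for sgUFL1 had r = 0.56, 0.64 and -0.46. The numbers were taken to pair set 1 and set 2 only, a choice made from these same data. The main fits did not use this pairing, and for set 1 against set 2 the fit with a replicate block is given beside the main fit. Alternatives were RLE scaling, no filter, at least 1 CPM in 3 libraries, DESeq2 1.42.0, 1 model over 12 libraries, a replicate block, offsets for GC content and length (lowess span 0.3), limma 3.58.1 on log2(FPKM + 0.5) or log2(FPKM + 0.1) with at least 0.5 FPKM in 3 libraries, and each library left out. Leaving out both libraries that stand apart was added after seeing the data. The procedure was tested on simulated counts with known fold changes. Simulated libraries of a group shared the same mean for each gene and none stood apart, so that test does not cover such libraries in these data. Within sets the chi-square per gene between libraries was 2.536 to 45.8, above sampling noise, and each library was counted. The values of 3 genes that these rules cover are not reported here.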

Additional observations from a re-analysis of the deposited data

Results flagged for a closer look

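IL1B is listed here because a test of the difference itself separated the guides: the effect of sgUFL1 minus that of sgUFM1, each against its own controls, was -1.09 on the log2 scale (SE 0.22, adjusted p = 0.0022, edgeR's quasi-likelihood test), and the value is the same under both namings. Under the names of the count table IL1B was at 0.02 for sgUFL1 (adjusted p = 0.954) and 1.11 for sgUFM1, and under those of the FPKM table at -0.60 and 0.50.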

How the results depend on the processing

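Counts of called members depended on the setting most where the 2 libraries that stand apart enter, and the calls among all genes also changed. Square brackets give the calls among all genes in the same fit. For sgUFM1 against the controls for sgUFL1 (6 called) [1503 of 15035], limma on FPKM gave 1 with either pseudocount [442 and 400 of 14356]. Leaving out 1 library gave 1 to 9 [275 to 4196]. Against set 2 (6 called) [5697 of 15083] the model over 12 libraries gave 3 [3023 of 15821], and leaving out 1 library gave 6 to 6 [4163 to 6525]. Against set 1 (2 called) [1456 of 14977] no filter gave 5 [2082 of 29663], the model over 12 libraries 0 [901 of 15821] and limma 0 and 0 [797 and 768 of 14298]. Leaving out 1 library gave 0 to 4 [118 to 4080] and leaving out the doubtful libraries 4 [4080 of 15309]. For set 1 against the controls for sgUFL1 (0 called) [165 of 14996] no filter gave 5 [1921 of 29654], DESeq2 2 [1697 of 11253] and the 12-library model 3 [3463 of 15821]. Leaving out 1 library gave 0 to 5 [0 to 2419] and both doubtful libraries 8 [4829 of 15123]. For set 2 against those controls (6 called) [5438 of 15175] GC and length offsets gave 2 [1361 of 15170] and leaving out 1 library 3 to 8 [2486 to 6985]. For set 1 against set 2 (2 called) [330 of 15033] no filter gave 5 [1116 of 30005], the 12-library model 1 [317 of 15821] and limma 0 and 0 [35 and 28 of 14298]. Leaving out 1 library gave 0 to 6 [13 to 2564] and the doubtful library 6 [2564 of 15341]. For the difference between guides (1 called, alike under both namings) [5511 of 15821] no filter gave 4 [5320 of 32805]. Leaving out 1 library gave 1 to 4 [4061 to 6321] and both doubtful libraries 7 [7347 of 16115]. Fewer samples enter each leave-out; for the other settings the cause was not tested.

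With the replicate block, 4 members were called for set 1 against set 2 [832 of 15033], where the numbers were taken to pair the libraries. For the difference between guides 2 were called [5788 of 15821], and IL6 passed (-0.89, adjusted p = 0.0315). In the comparisons not taken as paired, the block gave 7 calls for sgUFM1 against the controls for sgUFL1 [1868 of 15035], 6 against set 2 [4906 of 15083] and 2 against set 1 [978 of 14977]. It gave 0 for set 1 [0 of 14996] and 8 for set 2 [5671 of 15175] against the controls for sgUFL1.

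Signs changed as follows on the log2 scale, the cause not tested. For sgUFM1 against set 1, leaving out 1 library gave -0.161 to 0.309 for IL6, -0.051 to 0.193 for LIF and -0.599 to 0.131 for IL24, and leaving out the library that stands apart gave -0.161, -0.051 and 0.131. For set 1 against the controls for sgUFL1, it gave -0.106 to 0.252 for IL1B, -0.012 to 0.632 for IL6 and -0.419 to 0.085 for IL1A, and offsets gave -0.012 for CSF1 and 0.025 for IL1A. For set 2 against those controls, it gave -0.308 to 1.199 for CSF3 and -0.537 to 0.007 for IL24, and offsets -0.438 for CSF3. For set 1 against set 2, it gave -0.351 to 0.07 for CSF2, which was 0.07 without the library that stands apart. For the difference between guides, it gave -0.377 to 0.383 for IL24 and -0.069 to 0.644 for CSF2, offsets gave -0.295 for CSF1, -0.023 for CSF2, -0.009 for IL11 and -0.112 for LIF, and leaving out both doubtful libraries 0.382 for CSF3 (adjusted p = 0.00375) and -0.682 for IL24 (adjusted p = 0.000295). IL1A rests on 6 to 49 counts per library, so depth limits it most. No scaling moved the median of all genes by over 0.1.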
